A study of Mus musculus with 19 samples.

Results

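MHC class II molecules carry peptides to the surface of antigen presenting cells, where CD4+ T cells read them. Each molecule pairs an alpha chain with a beta chain, the invariant chain guides the pair through the cell and blocks its groove, and a separate pair of DM chains loads the peptide. The coactivator Ciita switches the genes on together, and the epithelium of the small intestine is known to make class II in addition to the immune cells below it. The 7 genes described here were listed by name, with a rule that uses no measured value: Ciita, the coactivator; Cd74, the invariant chain; H2-Aa and H2-Ab1, the alpha and beta chain of I-A; H2-Eb1, the beta chain of I-E; and H2-DMa and H2-DMb1, the DM pair. They are 7 of 55487 genes in the expected count files, and all 7 passed the filter on low counts.

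RNA was sequenced from small intestinal crypts, the epithelial pits that hold the stem and dividing cells, of 19 C57BL/6 mice of both sexes, with 1 library a mouse. Neurotensin (NT) is a peptide hormone of the distal intestine, encoded by Nts. The groups were NT+/+ AL (wild type, fed ad libitum, n = 5), NT-/- AL (no functional NT gene in any cell, fed, n = 4), NT+/+ Fast (wild type, 48 h without food, n = 5), and NT-/- Fast (NT-/-, 48 h without food, n = 5). NT-/- mice lack the hormone throughout life and in the whole body. Per the methods, the crypts were released with a chelator from all but the distal part of the small intestine. They were not sorted. The labels do not say whether the mice carried the Lgr5 reporter allele that other experiments of the study used. The questions were what a 48 h fast does to the crypts, what loss of NT does in fed and in fasted mice, and whether the response to fasting differs with genotype.

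Total counts per mouse ranged from 9059457 to 35068711, with a median of 18541819. Nts was 6.75 to 8.59 CPM (counts scaled to the library size) in the NT+/+ AL mice and 4.98 to 5.71 CPM in the NT+/+ Fast mice, against at most 0.793 CPM in all 9 mice titled NT-/-. Mouse 5 of the NT+/+ Fast group carries a genotype label that goes against its title. Its Nts level of 5.43 CPM lay inside the range of the other NT+/+ Fast mice, and it was kept in the group of its title. The 6 general epithelial markers summed to between 5530 and 7610 CPM in every mouse, and the 6 general leukocyte markers to between 44.9 and 117 CPM. With bulk RNA, fewer cells of a type and less RNA per cell cannot be told apart.

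On the genome build GRCm38, H2-Aa (ENSMUSG00000036594, minus strand, chr17:34282744-34287823), H2-Ab1 (ENSMUSG00000073421, chr17:34257689-34269419), H2-Eb1 (ENSMUSG00000060586, chr17:34305867-34316674), H2-DMa (ENSMUSG00000037649, chr17:34119541-34139101), and H2-DMb1 (ENSMUSG00000079547, chr17:34153072-34160230) are protein-coding genes of the H2 complex. Ciita (ENSMUSG00000022504) lies at chr16:10480059-10528418, away from the complex. The promoters of class II genes are known for a shared upstream module, an X box bound by the RFX complex, an adjoining X2 box bound by CREB, and a Y box, CCAAT or its complement ATTGG, bound by NF-Y. The 150 bases before the start site of H2-Aa and H2-Eb1 are shown, on the strand of the gene, because each holds letters of a part of this module, an X2 and a Y box pattern in H2-Aa and an X and a Y box pattern in H2-Eb1. Capitals mark matches, on either strand, to CCAAT and to 3 partial X and X2 box patterns, CCTAGNNAC, AGNNACNGA, and TGACGNNA.

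H2-Aa, chr17:34287824-34287973, minus strand: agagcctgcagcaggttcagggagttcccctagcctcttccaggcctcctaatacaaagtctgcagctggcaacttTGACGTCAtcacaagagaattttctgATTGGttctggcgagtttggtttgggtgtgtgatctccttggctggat
H2-Eb1, chr17:34305717-34305866, plus strand: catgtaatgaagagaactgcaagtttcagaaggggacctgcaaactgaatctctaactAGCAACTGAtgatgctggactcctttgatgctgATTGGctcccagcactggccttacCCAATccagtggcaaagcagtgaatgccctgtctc

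In H2-Aa the CREB-type letters TGACGTCA began 74 bases and the ATTGG letters 48 bases before the start site. In H2-Eb1 the X box letters AGCAACTGA began 92 bases, ATTGG 59 bases, and a further CCAAT 35 bases before it. H2-DMb1 had the same order of letters in its RefSeq window, with CCTAGTAAC beginning 98 bases, the overlapping AGTAACTGA 95 bases, and ATTGG 61 bases before the start and a TGNNTCA match between them, in a stretch that the other annotation used here counts as transcribed. Of 2 windows listed for H2-DMa, 1 held no match and the other held ATTGG 198 bases before the start and a TGNNTCA match, a looser X2 pattern. The sequences are those of RefSeq for GRCm38.p6, whose promoter table held windows for 4 of the 7 genes. The letters alone are common: of 32851 mouse promoter windows of 300 bases, 37.4% held CCAAT, 3.91% CCTAGNNAC, 17.7% AGNNACNGA, 6.61% TGACGNNA, and 42.5% TGNNTCA on either strand. The matches are a description of sequence, and no binding was measured.

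The class II genes were expressed well above the detection limit in every mouse. Per unit of length, in the authors' TPM (transcript abundance scaled for length and library size), Cd74 was the highest, from 228 to 798 TPM with a mean of 524 over the 19 mice, and exceeded H2-Aa in 19 of 19 mice. H2-Aa and H2-Ab1 came next, with mean levels of 146 and 141 TPM, and their order was not fixed, since H2-Aa was the higher in 9 of 19 mice. H2-Eb1 followed with a mean of 121 TPM and lay below H2-Ab1 in all 19 mice. The DM chains were lower, at mean levels of 28.9 TPM for H2-DMa and 26.4 TPM for H2-DMb1, and H2-DMa was the higher in 15 mice. Cd74 (ENSMUSG00000024610) lies outside the H2 complex, on chromosome 18, from 60803848 to 60812652 on the plus strand. Ciita was the lowest, with a mean of 10.1 TPM and a range from 4.84 to 19.1 TPM. The fewest counts behind a value were 169 for H2-DMa, 207 for H2-DMb1, and 318 for Ciita, and the median mouse had 10259 counts for Cd74. The partner of H2-Eb1 in other mouse strains, the I-E alpha chain, is represented by the pseudogene H2-Ea-ps, which was listed at 0 in 18 mice and at 0.107 CPM in 1.

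Fed NT-/- mice had lower values of all 7 genes than fed NT+/+ mice, but no gene passed the test. For Cd74 the 5 NT+/+ AL mice had 738, 558, 525, 692, and 579 CPM, and the 4 NT-/- AL mice had 616, 225, 294, and 377 CPM. Mice 2, 3, and 4 of the NT-/- AL group lay below every NT+/+ AL mouse, and mouse 1 lay inside the NT+/+ range. For H2-Aa the NT+/+ AL mice had 138, 119, 107, 181, and 145 CPM and the NT-/- AL mice 133, 35.8, 70.3, and 79.2 CPM. For H2-Ab1 the corresponding values were 164, 127, 132, 188, and 152 CPM against 154, 51.4, 78.1, and 87.0 CPM. The same mouse of the NT-/- AL group, mouse 1, was the highest of its group for all 7 genes, and mouse 2 was the lowest for all 7.

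H2-Eb1, the DM pair, and the coactivator did not separate the fed genotypes completely. H2-Eb1 was 93.5 to 128 CPM in NT+/+ AL mice and 39.5 to 112 CPM in NT-/- AL mice. H2-DMa was 24.2 to 36.6 CPM against 13.7 to 30.8 CPM, and H2-DMb1 was 26.5 to 38.2 CPM against 11.2 to 29.5 CPM. For each of these 3 genes, 3 of the 4 NT-/- mice lay below all 5 NT+/+ mice. Ciita was 32.8 to 63.4 CPM against 17.2 to 44.0 CPM, and 2 of the 4 NT-/- mice lay below all NT+/+ mice.

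The log2 fold changes of NT-/- AL against NT+/+ AL ran from -0.79 ± 0.28 (SE) for H2-Aa to -0.47 ± 0.21 (SE) for H2-DMa, with a median of -0.70 over the 7 genes, beside a median of 0.00 over all 17875 genes tested. For Cd74 the log2 fold change was -0.71 ± 0.24 (SE), a level 0.611 times that of NT+/+ mice with a 95% interval from 0.433 to 0.862 times. In edgeR's quasi-likelihood test the unadjusted p ranged from 0.00719 for H2-DMb1 to 0.0348 for H2-DMa, so that all 7 were under 0.05, which held for 0.822% of all tested genes in this direction. After Benjamini-Hochberg adjustment over all genes the adjusted p was 1 for each of the 7 genes, and 0 were called, beside 0.00559% of all genes, which is Nts alone. A two-sided exact permutation test of the mice on log2(CPM + 1) gave p from 0.0476 to 0.111 over the 7 genes, with 0.0159 the smallest p that 5 mice against 4 can give. The 7 genes are not independent of each other across mice, so their shared direction is not 7 separate observations.

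Whether the fed difference rests on single mice was examined by leaving out each in turn. Without mouse 1 of the NT-/- AL group, the log2 fold change of H2-Aa was -1.16 and that of Cd74 -1.05, and the lowest adjusted p among the 7 genes was 0.662. Without mouse 2, H2-Aa was -0.55 and Cd74 -0.53. The names of the data files carry a number for each mouse, and when fed mice with equal numbers were compared, the NT-/- mouse was the lower in 4 of 4 pairs for each of the 7 genes, by 0.05 to 1.71 on the log2 scale for H2-Aa. With that number as a block the lowest adjusted p was 0.776.

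**Figure D1:**
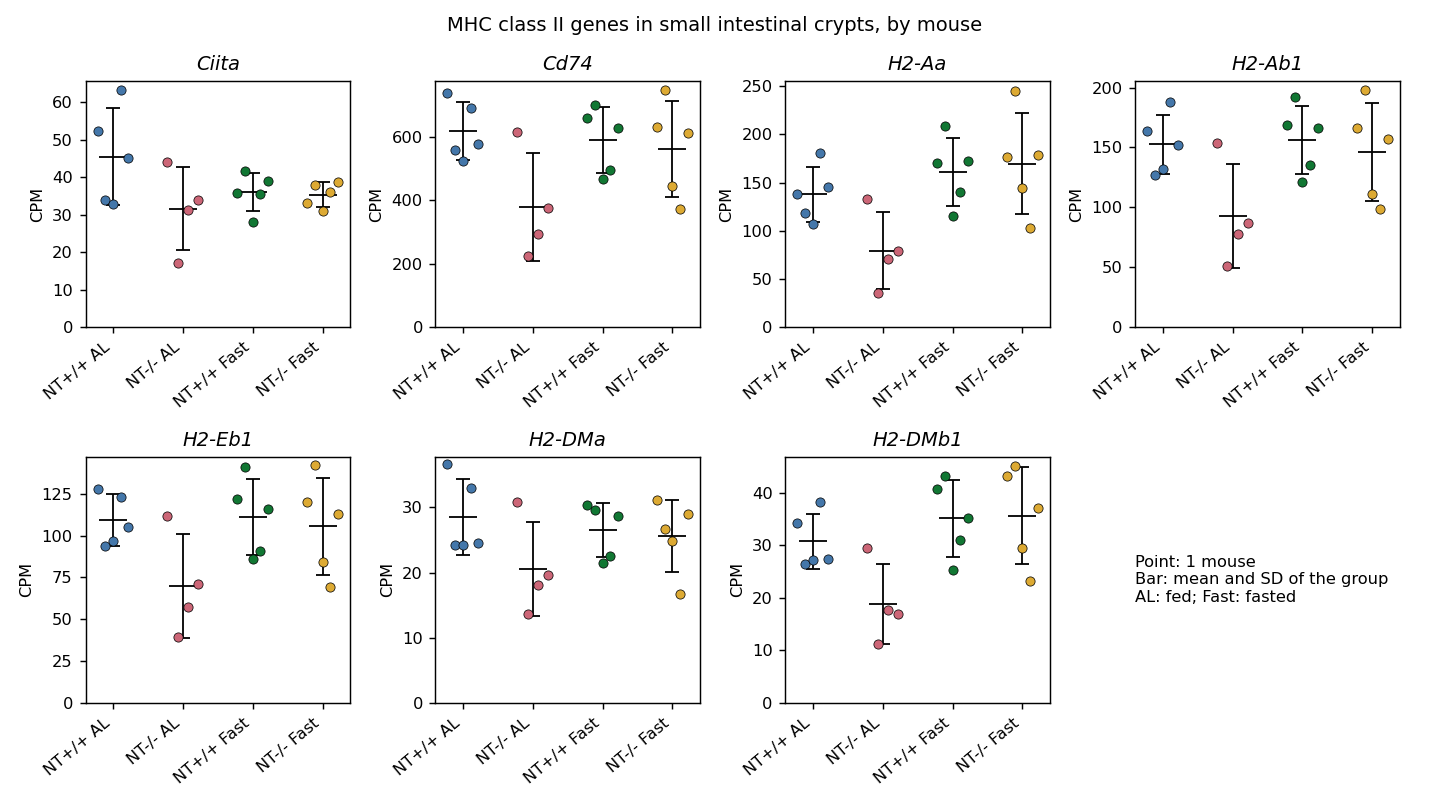
Level in CPM (vertical axis, linear and from 0) of each of the 7 class II genes in each mouse, by group on the horizontal axis; points are mice and bars give the group mean and SD. In NT-/- AL, 3 of 4 mice lie low for Cd74 (225 to 377 CPM), while the fasted groups overlap the NT+/+ AL group.

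On fasting of NT+/+ mice none of the 7 genes passed the test. Cd74 was 662, 700, 467, 497, and 630 CPM in the NT+/+ Fast mice, against 525 to 738 CPM when fed, and H2-Aa was 170, 209, 115, 140, and 172 CPM, against 107 to 181 CPM when fed. The ranges of fed and fasted mice overlapped for each of the 7 genes. The log2 fold changes ran from -0.34 ± 0.20 (SE) for Ciita to 0.22 ± 0.26 (SE) for H2-Aa, and their median was 0.02, beside -0.01 over all genes. In edgeR's test 0 of 7 genes were called at an adjusted p under 0.05 (lowest adjusted p, 0.234, for Ciita) and 0 had an unadjusted p under 0.05, beside 21.6% of all tested genes called and 34.1% with an unadjusted p under 0.05. The 95% intervals leave room for moderate change: for Cd74 from 0.694 to 1.32 times the fed level, for H2-Aa from 0.801 to 1.70 times, and for Ciita from 0.595 to 1.05 times. The exact permutation test gave p from 0.175 to 0.952, where 0.00794 is the smallest that 5 mice against 5 allow.

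Fasting of NT-/- mice raised H2-Aa and H2-DMb1. H2-Aa had 133, 35.8, 70.3, and 79.2 CPM in the fed NT-/- mice and 177, 245, 144, 103, and 179 CPM in the fasted ones. Of the 5 fasted mice, 4 lay above all 4 fed mice. H2-Aa rose 2.12-fold, with a log2 fold change of 1.09 ± 0.28 (SE) and an adjusted p of 0.00815 in edgeR's test. H2-DMb1 had 29.5, 11.2, 17.7, and 16.9 CPM fed and 43.3, 45.2, 29.6, 23.2, and 37.2 CPM fasted, and again 4 of 5 fasted mice lay above all fed mice. H2-DMb1 rose 1.88-fold, with a log2 fold change of 0.91 ± 0.23 (SE) and an adjusted p of 0.00718. For both genes the exact permutation test gave p = 0.0317, where the smallest possible p is 0.0159.

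The remaining 5 genes had positive values that did not pass the test. H2-Ab1 had 154, 51.4, 78.1, and 87.0 CPM in fed and 166, 198, 111, 98.9, and 157 CPM in fasted NT-/- mice, a log2 fold change of 0.66 ± 0.24 (SE). Cd74 had 616, 225, 294, and 377 CPM fed and 631, 750, 446, 374, and 613 CPM fasted, a log2 fold change of 0.57 ± 0.24 (SE). H2-Eb1 was 39.5 to 112 CPM fed and 69.3 to 142 CPM fasted, with 0.59 ± 0.24 (SE). In edgeR's test the adjusted p was 0.0559 for H2-Ab1, 0.0785 for H2-Eb1, and 0.0827 for Cd74. H2-DMa, at 0.32 ± 0.21 (SE), and Ciita, at 0.15 ± 0.21 (SE), were farther from the threshold, with adjusted p of 0.289 and 0.649.

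Thus 2 of 7 genes were called higher and 0 lower in fasted NT-/- mice, beside 12.5% of all tested genes called higher and 25.2% called in either direction. The median log2 fold change of the 7 genes was 0.59, beside -0.02 over all genes. With mice of equal number (the number carried by the data files) as a block in the fit, 5 of 7 were called higher, beside 14.7% of all genes, the additional genes being Cd74 (adjusted p = 0.0181), H2-Ab1 (adjusted p = 0.0184), and H2-Eb1 (adjusted p = 0.0238). That fit called 31.7% of all genes in either direction, more than the fit without the block. Without mouse 1 of the NT-/- AL group 6 of 7 were called higher, all but Ciita, beside 10.8% of all genes, and without mouse 4 of the NT-/- Fast group 5 of 7, beside 11.7%. This comparison and that of the fed genotypes share the 4 NT-/- AL mice, whose levels enter both with opposite sign, so the higher values here and the lower values there are not separate observations. Villus enterocyte markers moved with this comparison: 8 of 8 were called higher, and their summed level was 5150 to 7770 CPM in fed and 12800 to 17200 CPM in fasted NT-/- mice. In NT+/+ mice, where no class II gene was called, 6 of 8 were called higher and the sum was 3230 to 7060 CPM fed and 6920 to 14700 CPM fasted. The weakest villus marker call in NT-/- mice (adjusted p = 0.0427 in edgeR's test) was lost in 10 of 19 fits without 1 mouse. The weakest in NT+/+ mice (adjusted p = 0.0278) was lost in 5 of 19. The part of the villus markers in the class II result was not tested.

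**Figure D2:**
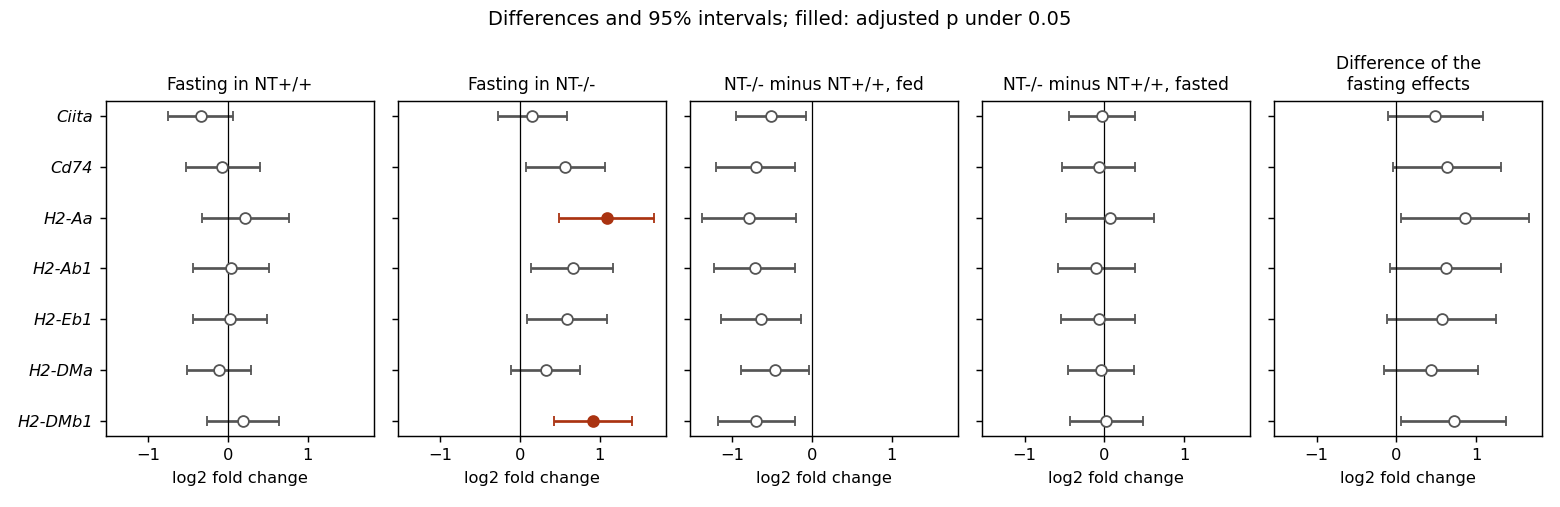
Log2 fold change (horizontal axis) with its 95% interval for each of the 7 genes in the 4 comparisons of groups and in the difference of the fasting effects; filled points passed an adjusted p of 0.05 in edgeR's test. H2-Aa (1.09) and H2-DMb1 (0.91) in fasted against fed NT-/- mice are the filled points.

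Fasted NT-/- and fasted NT+/+ mice had overlapping levels of all 7 genes. Mean levels were 563 ± 151 (SD, n = 5) against 591 ± 103 CPM (SD, n = 5) for Cd74, 169 ± 52.1 against 161 ± 35.7 CPM for H2-Aa, 146 ± 40.8 against 157 ± 28.2 CPM for H2-Ab1, and 35.4 ± 3.26 against 36.0 ± 5.06 CPM for Ciita. The log2 fold changes lay between -0.10 and 0.07, with a median of -0.04 beside -0.01 over all genes. In edgeR's test 0 of 7 were called and 0 had an unadjusted p under 0.05, beside 0.00559% of all genes called and 9.14% with an unadjusted p under 0.05. The intervals still include differences such as 0.692 to 1.31 times for Cd74 and 0.719 to 1.53 times for H2-Aa, so that equal levels are not shown.

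The difference of the fasting effects, the change in NT-/- minus the change in NT+/+ mice, was positive for all 7 genes, from 0.43 ± 0.28 (SE) on the log2 scale for H2-DMa to 0.86 ± 0.38 (SE) for H2-Aa, with a median of 0.62 beside -0.01 over all genes. The unadjusted p of edgeR's test was 0.0339 for H2-DMb1 and 0.0359 for H2-Aa and above 0.05 for the other 5, and 2.71% of all genes were under 0.05. The adjusted p was 1 for each of the 7 genes, and 0 of 7 were called, as were 0.0% of all genes. The rise of H2-Aa and H2-DMb1 in NT-/- mice is therefore not shown to differ from the change in NT+/+ mice.

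Within groups, the class II genes rose and fell together from mouse to mouse. For deviations of log2 CPM from the group means over 19 mice, Pearson's r was 0.852 to 0.992 among the 15 pairs of genes other than Ciita, and the closest pair was Cd74 with H2-Eb1. Values of 1 mouse share a library, so these are descriptions. The relation of each gene to the coactivator Ciita was tested by permuting mice within groups, as a family of 6 relations. Pearson's r with Ciita was 0.824 for H2-Aa (Spearman's rho, 0.798), 0.796 for H2-Ab1 (rho, 0.744), 0.758 for H2-Eb1 (rho, 0.719), 0.753 for H2-DMb1 (rho, 0.735), 0.741 for Cd74 (rho, 0.681), and 0.708 for H2-DMa (rho, 0.691). The Benjamini-Hochberg adjusted permutation p over the 6 relations was 0.00114 to 0.0057 for r and 0.00078 to 0.00501 for rho. The permutation took the mice of a group as exchangeable. Mice of equal number in different groups deviated together, so these p-values may be too small. Each relation also pairs values of the same libraries. The p-values do not single out Ciita. Gata4, the highest of the many genes ranked below, had r = 0.89 with the mean of the class II genes, and Ciita had 0.83. The 2 mice farthest from the median of Ciita were mice 1 and 2 of the NT-/- AL group, and without them r fell to between 0.517 for H2-DMa and 0.648 for H2-Aa. In fasted NT-/- mice the genes spread unevenly: H2-Aa ranged from 103 to 245 CPM while Ciita ranged from 31.0 to 38.8 CPM.

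**Figure D3:**
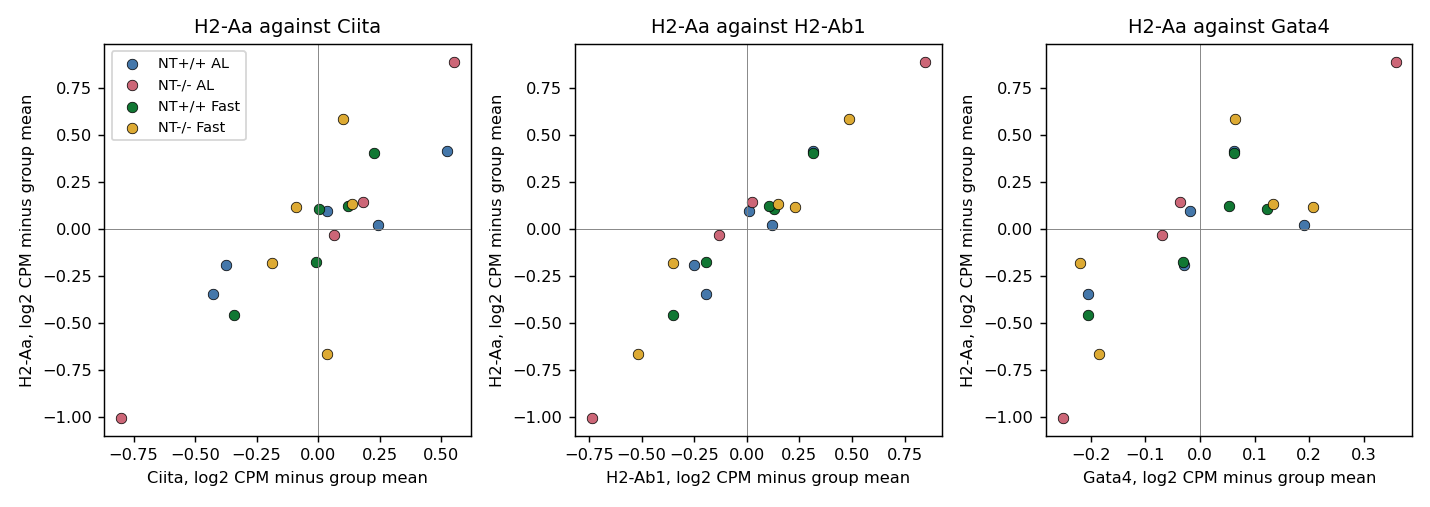
H2-Aa (vertical axis) against Ciita, H2-Ab1, and Gata4 (horizontal axes) in 19 mice, each as log2 CPM minus the mean of the mouse's group, with colors for groups. Mice 1 and 2 of the NT-/- AL group lie at the upper right and lower left ends, and H2-Aa follows Ciita with r = 0.824.

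The balance of the chains was not the same in fed and fasted mice, which was noticed after the values were seen and is given without a test. The ratio of H2-Aa to H2-Ab1 TPM was 0.827 to 0.978 in NT+/+ AL mice and 0.706 to 0.924 in NT-/- AL mice, below 1 in all 9 fed mice. It was 0.963 to 1.14 in NT+/+ Fast mice and 1.07 to 1.32 in NT-/- Fast mice, above 1 in 9 of 10 fasted mice. The DM pair moved the other way, since the ratio of H2-DMa to H2-DMb1 was 1.14 to 1.35 and 1.36 to 1.67 in the fed NT+/+ and NT-/- groups and 0.898 to 1.11 and 0.708 to 1.12 in the fasted ones. The ratio of Cd74 to H2-Ab1 was 3.43 to 4.24 over all mice and the groups overlapped. H2-DMb1 can exchange reads with its near-identical copy H2-DMb2, which was 0 to 2.88 CPM, and H2-DMa overlaps Brd2 and other annotated genes, so the DM ratio is the less certain. TPM ratios also rest on the transcript lengths that RSEM assigned in each library, which were not examined.

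**Figure D4:**
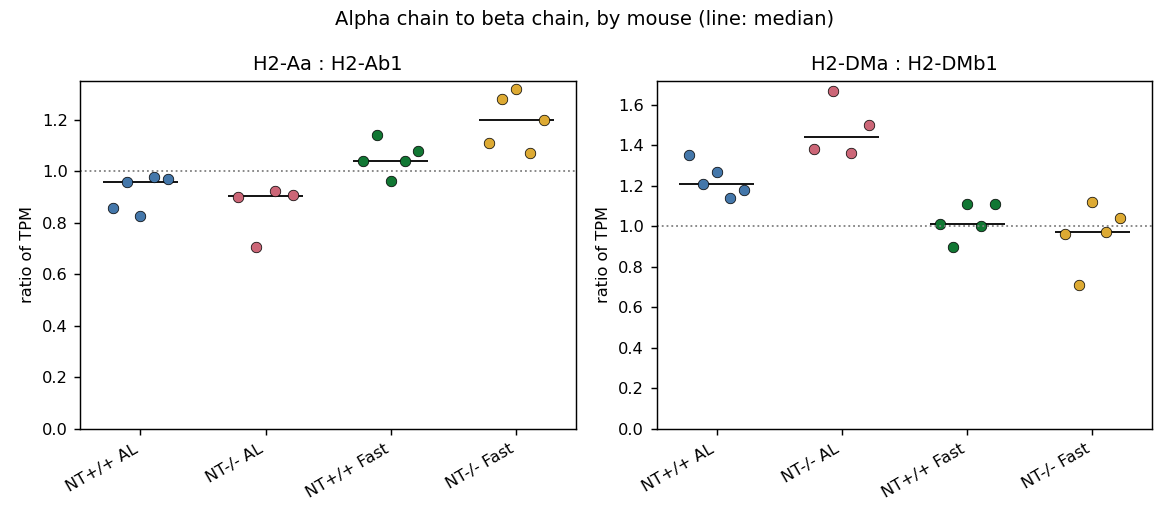
Ratio of TPM of H2-Aa to H2-Ab1 (left) and of H2-DMa to H2-DMb1 (right) in each mouse, by group, with the group median as a line and a dotted line at 1. The 9 fed mice lie below 1 for H2-Aa to H2-Ab1 and 9 of 10 fasted mice above it.

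The other genes of the class II pathway were described by lists. For the list counts that follow, 21.6% of all tested genes were called on fasting in NT+/+ mice, in either direction. In NT-/- mice the share was 25.2%. Of 10 tested accessory genes, which edit, degrade, or cleave class II and its invariant chain, 3 rose on fasting in NT+/+ mice and 0 fell, and 4 rose and 0 fell in NT-/- mice, with list medians of 0.04 and 0.03 on the log2 scale. Lgmn, the lysosomal protease legumain, rose by a log2 fold change of 0.93 ± 0.19 (SE, adjusted p = 0.00188 in edgeR's test) in NT+/+ and 1.40 ± 0.21 (SE, adjusted p = 8.75e-05) in NT-/- mice. Ctsl, cathepsin L, rose by 0.49 and 0.50. March8, a ubiquitin ligase that lowers surface class II, rose by 0.18 and 0.35. Ctss, cathepsin S, which trims the invariant chain, had 0.05 in NT+/+ mice and rose by 0.36 in NT-/- mice. H2-Ob, the beta chain of the DM inhibitor DO, had -1.44 ± 0.63 (SE) and -1.17 ± 0.67 (SE), with adjusted p of 0.112 and 0.22.

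Genes of factors that act at the class II promoter, by binding it or as coactivators, fell or did not pass. Of 9 tested, 3 fell on fasting of NT+/+ mice and 2 on fasting of NT-/- mice, and 0 rose. Over all tested genes, 21.6% and 25.2% were called in either direction. The list medians were -0.17 and -0.11. No subunit of the RFX complex was called in either genotype. Creb1, the X2 box factor, had log2 fold changes of -0.62 and -0.60 in the respective genotypes. Nfya, a subunit of the Y box factor NF-Y, had -0.59 and -0.67, both called. Nfyc fell by 0.25 in NT+/+ mice and had -0.11 in NT-/- mice. The coactivator Crebbp had 0.17 in both.

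Interferon gamma is known to induce Ciita, with Irf1 as an intermediate. Ifng itself was at most 0.211 CPM in any mouse. Of 17 tested genes of this pathway, 5 fell and 1 rose on fasting in NT+/+ mice, and 2 fell and 3 rose in NT-/- mice, with list medians of -0.26 and 0.24. Irf1 fell by 0.55 in NT+/+ mice and had -0.30 ± 0.14 (SE) in NT-/- mice. Irf8 had -0.38 and -0.34, both called, and the receptor chain Ifngr1 rose by 0.25 and 0.42. Also called lower were Irgm1 (-0.72) in NT+/+ mice and the feedback inhibitor Socs1 (-1.0 and -1.14) in both genotypes, and also called higher in NT-/- mice were Ifngr2 and the kinase Jak2 (0.36). None of the differences of the fasting effects in this list was called.

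Genes of MHC class I, which presents peptides to CD8+ T cells, were used as a contrast. Of 8 tested, 1 fell in fasted NT+/+ mice, the immunoproteasome subunit Psmb9 (-0.61), and 3 rose in fasted NT-/- mice, with list medians of -0.07 and 0.25. The 3 were H2-K1 (0.44), H2-D1 (0.36), and Tap2 (0.45), a subunit of the peptide transporter, and each of these 3 calls was lost in at least 2 of 19 fits without 1 mouse, with adjusted p up to 0.167 in edgeR's test. Psmb8 had -0.38 ± 0.19 (SE) and 0.03 ± 0.21 (SE), and B2m had -0.29 ± 0.12 (SE) and 0.08 ± 0.12 (SE). Of 4 tested ligands by which antigen presenting cells signal to T cells, 0 were called in either genotype. Cd80 had -0.73 ± 0.36 (SE) and -0.11 ± 0.39 (SE), and Icosl 0.28 ± 0.22 (SE) and 0.34 ± 0.24 (SE). Cd274, the ligand of PD-1, had -0.21 and 0.16, and the adhesion molecule Icam1 had 0.13 and 0.32. The costimulatory genes Cd86 and Cd40 did not pass the filter on low counts.

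Epithelial class II is known to depend on the microbiota, so genes with the same dependence were listed. Of 6 tested, 2 fell and 0 rose on fasting in NT+/+ mice, and 2 fell and 1 rose in NT-/- mice. The 2 were the hydrogen peroxide producing oxidase Duox2, with log2 fold changes of -3.13 and -3.75, and its maturation factor Duoxa2, with -2.93 and -3.52. The gene called higher in NT-/- mice was Nos2 (2.30 ± 0.77, SE), an inducible nitric oxide synthase, whose level in the NT-/- Fast group was 172 CPM in mouse 2 and 12.9 to 17.6 CPM in the other 4, and which was not called without that mouse (log2 fold change 0.75, adjusted p = 0.34). Reg3g, an antimicrobial lectin, had -0.85 and 0.33, and Il18, an epithelial cytokine, had -0.22 and -0.17. Between fed genotypes the median of the 6 genes was -0.70, and in the difference of the fasting effects 0.62, beside 0.00 and -0.01 over all genes. The list was split, and these medians do not describe each gene. Between fed genotypes Duox2 had -0.09, Duoxa2 -0.16, and Il18 0.18. In the difference of the fasting effects they had -0.63, -0.58, and 0.05. Reg3g had a log2 difference of -1.51 ± 0.47 (SE) in fed NT-/- against fed NT+/+ mice, its relative Reg3b -1.24 ± 0.47, and Nos2 -1.59 ± 0.76. None of the 3 was called, with an adjusted p of 1.0 each in edgeR's test over all genes. Among the other list genes named here or in the lines on cell markers, the calls of March8, Nfyc, Ifngr1, Irgm1, Socs1, and Olfm4 in NT+/+ mice, and of Irf8, Socs1, Jak2, Gzma, and Laptm5 in NT-/- mice, were also lost without 1 or another mouse, with adjusted p of 0.0619 to 0.158 where weakest. In none of these 6 lists was any gene called in the comparisons of genotypes.

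Immune cells that come along with crypts can also express class II, so their markers were set beside the 7 genes. B cell markers summed to between 2.84 and 31.4 CPM over the 19 mice, and the highest sum was in mouse 4 of the NT-/- AL group, whose H2-Aa level of 79.2 CPM was among the 3 lowest. Mouse 2 of the NT-/- Fast group had the highest H2-Aa level, 245 CPM, and the lowest B cell sum. The dendritic cell and macrophage markers summed to 18.1 to 35.2 CPM, and of 15 such genes 9 stayed below 1 CPM in every mouse, among them Flt3, Xcr1, Clec9a, Adgre1, and C1qa. Over deviations from group means, Pearson's r with the mean of the class II genes was 0.01 for the leukocyte sum, 0.26 for B cells, 0.30 for dendritic cells and macrophages, and 0.12 for T cells and intraepithelial lymphocytes, given as descriptions over 19 mice.

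Between the groups, some of these markers were higher and some lower after fasting. No tested B cell, plasma cell, endothelial, or fibroblast and muscle gene was called in any comparison. The tested genes were 6 of 6 for B cells, 2 of 5 for plasma cells, 1 of 4 for endothelium, and 4 of 6 for fibroblasts and muscle. Uncalled lists could still lean to 1 side, as the B cell medians on fasting were -0.60 in NT+/+ and -0.92 in NT-/- mice. Of 6 tested dendritic cell and macrophage genes, 1 was lower in fasted NT+/+ mice, Itgam (-0.83). In fasted NT-/- mice 2 were lower, Itgam (-0.54) and Zbtb46 (-0.66). Median dendritic cell and macrophage sums were 33.4 CPM in NT+/+ AL and 22.3 CPM in NT+/+ Fast mice, with ranges that did not overlap. In NT-/- mice the medians were 25.9 CPM fed and 20.4 CPM fasted, and the fed genotypes overlapped. Between fed genotypes the median log2 fold change was -0.11 for this list and -0.03 for leukocytes. Itgam had -0.46 ± 0.14 (SE) there, with an unadjusted p of 0.00275 in edgeR's test, and was not called. In fasted NT-/- mice 1 of 6 leukocyte genes was higher, Laptm5 (0.70 ± 0.23, SE), and 1 of 9 T cell and intraepithelial lymphocyte genes, the granzyme Gzma (0.97), with a median of 0.79 over that list. The leukocyte sum was 46.8 to 79.2 CPM in NT-/- AL and 83.6 to 104 CPM in NT-/- Fast mice, ranges that did not overlap. The T cell and intraepithelial lymphocyte sum was 59.4 to 126 CPM and 107 to 185 CPM. Il22, Il17a, and Il23r, markers of group 3 innate lymphoid cells, stayed below 1 CPM in every mouse. Of 7 tested crypt base markers, 1 was lower in NT+/+ mice, Olfm4 (-0.63), and 2 in NT-/- mice, Olfm4 (-0.92) and Smoc2 (-0.49), and 0 were called higher. The list as a whole did not fall, with medians of 0.29 in NT+/+ and -0.02 in NT-/- mice. Of 6 epithelial markers, 0 were called in either genotype. The part of these shifts in the class II values was not tested.

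**Figure D5:**
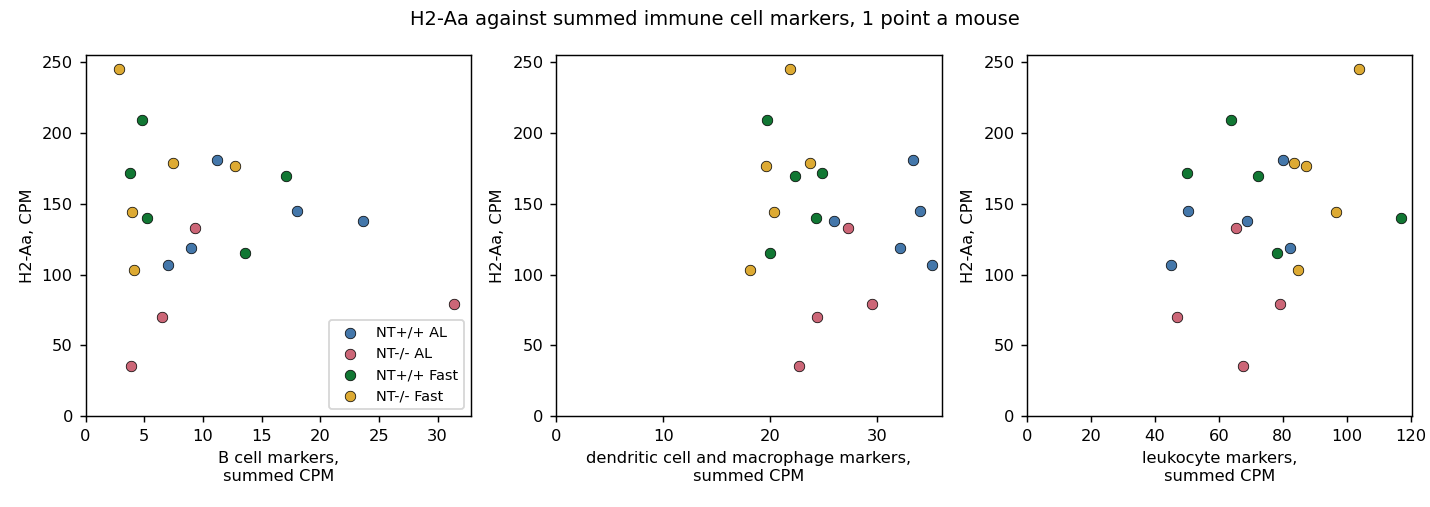
H2-Aa in CPM (vertical axis) against the summed CPM of markers of B cells, of dendritic cells and macrophages, and of leukocytes in general (horizontal axes), 1 point a mouse, colored by group. The mouse with the highest B cell sum, 31.4 CPM, has a low H2-Aa level, 79.2 CPM.

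Genes outside the list with the most similar pattern were ranked over 17868 genes by Pearson's r with the mean log2 CPM of the 7 genes, and the highest of so many values are high by selection. Over all 19 mice the 5 highest were Tap1 (0.84), which transports peptides for class I, the pseudogenes Gm8226 (0.791) and Gm18537 (0.775), Gm49510 (0.76), and the fatty acid receptor Ffar4 (0.742). Gm8226, Gm18537, and Gm49510 were at 0 in at least 1 mouse. For deviations from the group means the 5 highest were Gata4 (0.893; Spearman's rho, 0.874), Lnx2 (0.815), the immunoproteasome subunit Psmb8 (0.814), the antisense gene Gm2415 (0.807), and Eepd1 (0.801). Gata4 is a transcription factor of the proximal small intestine. Its level was 108 to 142 CPM in NT+/+ AL, 112 to 171 CPM in NT-/- AL, 118 to 148 CPM in NT+/+ Fast, and 119 to 160 CPM in NT-/- Fast mice. In each of the 4 groups the highest Gata4 level was that of mouse 1. The highest of all was in mouse 1 of the NT-/- AL group, the fed NT-/- mouse with class II levels inside the NT+/+ range. In both fasted groups H2-Aa was highest in mouse 2 (209 CPM in NT+/+ Fast and 245 CPM in NT-/- Fast), not in mouse 1 (170 and 177 CPM). The log2 fold change of Gata4 between fed genotypes was 0.11 ± 0.12 (SE).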

How the data were processed

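RNA of crypts from 19 mice was analysed. Per the labels and methods, the authors depleted ribosomal RNA, sequenced single-end reads of 100 bases, trimmed them with Trimmomatic 0.39, and quantified Ensembl transcripts of GRCm38 with RSEM. The authors deposited RSEM's expected counts per gene, which are not normalized, and TPM, which is scaled for length and depth. The RSEM version and strand setting are not given in the sources used here, so reads of overlapping antisense genes (Dexi for Ciita, Gm20513 for H2-Eb1, Brd2 for H2-DMa) may be included. RSEM divides reads shared by near-identical genes.

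Expected counts were rounded. In edgeR 4.0.16 (R 4.3.3), 17875 genes passed filterByExpr, and TMM-normalized counts of 4 groups were fitted with 15 residual degrees of freedom and tested by quasi-likelihood, with Benjamini-Hochberg adjustment over all genes at 0.05. SEs were derived from the fold change and its F statistic. CPM uses TMM library sizes; exact tests used log2(CPM + 1), and correlations log2 CPM with a prior count of 2, or 100000 permutations within groups. Code was tested on simulated data. Groups follow the titles. Nothing says what the replicate numbers stand for. Same-numbered mice deviated together for the number in the file names, which differs from the title for 2 mice: the lowest correlation of a pair was 0.12 in each comparison of genotypes or of fed and fasted NT-/- mice and 0.16 between fed and fasted NT+/+ mice. For the title numbers it was as low as -0.06. Where samples come from separate animals, p-values measure the spread between mice.

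Genes named are the 7 class II genes, Nts, up to 4 genes of each list with the smallest p on fasting in NT+/+ mice, and the genes of most similar pattern; H2-DMb2, H2-Ea-ps, Cd79a, Fabp6, Slc10a2, Ctss, Nos2, Reg3b, H2-K1, H2-D1, Tap2, Zbtb46, Smoc2, Gzma, Socs1, Irgm1, Ifngr2, Jak2, and genes under the count filter were added after their values were seen. Some genes that meet this rule are not reported here. Genes and lists were chosen with earlier results of these data known. Alternatives were upper quartile normalization, DESeq2 1.42.0, no filter, a minimum of 10 counts in every mouse, replicate blocks, sex, the mouse with disagreeing labels left out or regrouped, only the groups compared, the likelihood ratio test, and each mouse left out.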

Additional observations from a re-analysis of the deposited data

How the results depend on the processing

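H2-Aa and H2-DMb1 were called higher in fasted NT-/- mice under every alternative fit. The count of 7 genes called there was 5 with DESeq2, 5 with a replicate block by title number, 5 with a replicate block by the number in the file names, and 2 to 6 over fits without 1 mouse each (6 without mouse 1 of NT-/- AL, 5 without mouse 4 of NT-/- Fast). The share of all genes called in either direction was 23.5% with DESeq2, 31.6% and 31.7% with the respective blocks, and 19% to 26.9% without 1 mouse each (20.9% and 22.9% without the mice named). In the other 3 comparisons of groups and in the difference of the fasting effects, 0 of 7 were called under every fit. The block changed no other call. Exact tests with p under 0.05 numbered 2 in fasted against fed NT-/- mice and 0 to 3 without 1 mouse each, and 1 between fed genotypes and 0 to 6, with 6 without mouse 1 of NT-/- AL.

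Of 1008 alternative values of single genes, 956 kept their direction and call, 21 became called, and 31 changed sign, of values near 0 that were not called. In fasted mice between genotypes, sex as a covariate gave -0.03 for H2-DMb1, and regrouping the mouse with disagreeing labels gave 0.03 for Ciita and 0.02 for H2-DMa. Leaving out 1 mouse each gave, in that comparison, -0.10 to 0.04 for Ciita, -0.20 to 0.05 for Cd74, -0.10 to 0.20 for H2-Aa, -0.23 to 0.01 for H2-Ab1, -0.20 to 0.04 for H2-Eb1, -0.12 to 0.08 for H2-DMa, and -0.07 to 0.14 for H2-DMb1; on fasting in NT+/+ mice, -0.13 to 0.01 for Cd74, -0.04 to 0.12 for H2-Ab1, and -0.07 to 0.10 for H2-Eb1; and on fasting in NT-/- mice -0.05 to 0.36 for Ciita. Over all genes, calls between fasted genotypes were 1, but 99 with DESeq2 and 41 with the likelihood ratio test, between fed genotypes 1, but 4 and 3, and for the difference of the fasting effects 0, but 1 and 1. With a minimum of 10 counts, or with the mouse of disagreeing labels regrouped, the counts between fed and between fasted genotypes were 0.

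With 4 or 5 mice a group, the 95% interval of a class II gene spanned less than 1 unit on the log2 scale to either side. That width is not the limit of detection after adjustment over all genes, and larger differences can also go uncalled. Between fed genotypes the intervals of all 7 genes left out 0, as for Cd74 (-1.21 to -0.21), and 0 genes were called. Depth was not limiting for these genes, the fewest counts being 169.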

Other observations

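The ileal bile acid genes Fabp6 and Slc10a2, chosen after the values were seen, are given beside the class II values. Fabp6, the ileal bile acid binding protein, was 0.501 CPM in mouse 1 of the NT-/- AL group, the lowest of all 19 mice, and 4.17, 16.1, and 11.8 CPM in mice 2, 3, and 4 of that group, whose class II levels were lower. Among those mice, mouse 2 had the lowest class II levels and also less Fabp6 than mice 3 and 4. In NT+/+ AL mice Fabp6 was 1.39, 5.25, 9.45, 6.60, and 12.3 CPM. Mouse 1 had the lowest Fabp6 in each of the 4 groups, with 0.869 CPM in NT+/+ Fast and 0.961 CPM in NT-/- Fast. Over deviations from the group means of 19 mice, Pearson's r of Fabp6 with the mean of the class II genes was -0.45 and Spearman's rho -0.35, given as a description. Slc10a2, the ileal bile acid uptake transporter, was 0.72 to 1.32 CPM in NT+/+ AL, 0.295 to 2.18 CPM in NT-/- AL, 1.62 to 6.41 CPM in NT+/+ Fast, and 1.21 to 7.03 CPM in NT-/- Fast mice. It rose on fasting in NT+/+ mice (log2 fold change 1.99 ± 0.50, SE, edgeR adjusted p = 0.0069) and had 1.26 ± 0.53 in NT-/- mice (adjusted p = 0.0891).

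Genes of B cell antigen presentation varied among the fed NT-/- mice. H2-Ob was 5.11 CPM, H2-DMb2 2.88 CPM, and the B cell receptor component Cd79a 4.95 CPM in mouse 4 of the NT-/- AL group, each the highest of the 19 mice, while in mouse 2 of that group, with the lowest value of all 7 class II genes, they were 0.595, 0.162, and 0.541 CPM. No mouse was singled out as an outlier in the 28 sets of mice (7 genes in 4 groups). With 4 or 5 mice a set, an outlier can hardly be singled out, so this does not show that no mouse stood apart. In the NT-/- AL group Cd74 was 616 CPM in mouse 1 and 225, 294, and 377 CPM in mice 2, 3, and 4.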
